A study of Mus musculus with 22 samples.

Results

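Wild-type (WT) CD8+ T cells taken from tumor were compared with WT CD8+ T cells taken from spleen, both on day 7. The comparison rests on the 4 libraries that the labels give as WT, day 7 and not divided into subsets, 2 from tumor and 2 from spleen, out of 22 libraries in the series. All cells were P14 T cells, which carry a transgenic T cell receptor for a peptide of lymphocytic choriomeningitis virus, from C57BL/6 mice aged 6 to 12 weeks, and the design text gives 5 mice to a biological replicate, with no word on how they were pooled. The remaining 18 libraries hold VHL-deficient cells of day 7 spleen and day 7 tumor (2 libraries each), WT and VHL-deficient day 7 tumor cells sorted as Trm or nonTrm, names the labels do not spell out (2 libraries per sort and genotype), and day 11 tumor cells (3 libraries per genotype). The descriptions mark the second genotype as VHL, or V in the sorts, which is read here as the VHL-deficient cells of the series title. How the deletion was made, the kind of tumor, the event counted as day 0, the gates of the sorts and whether the same mice gave tumor and spleen were not stated in the labels. The well codes in the sample titles put the tumor and spleen libraries of both genotypes in plate column 2, the Trm and nonTrm sorts in column 1 and day 11 in column 3.

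A CD8+ T cell that meets its antigen in lymphoid tissue divides, acquires cytotoxic granules and cytokines, and changes the receptors that guide its traffic. Exit from tissue into the circulation depends on the sphingosine phosphate receptor encoded by S1pr1, whose transcription is driven by Klf2, and cells that settle in tissue are known to lower both. In tumors, T cells meet persistent antigen, low oxygen and competition for nutrients, and continued receptor signaling is known to induce inhibitory receptors and the NR4A family of nuclear receptors. Low oxygen stabilises the hypoxia-inducible factor (HIF) alpha subunits, which VHL otherwise marks for destruction, and HIF raises genes of glucose uptake and glycolysis.

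The 4 libraries held 3644936 to 6323089 reads assigned to genes, and all 22 held 3375558 to 10211060. Levels are given in scaled counts, the reads of a gene divided by a size factor of its library, and 1 read equals 1.09 and 2.35 scaled counts in tumor replicates 1 and 2 and 1.39 and 1.05 in spleen replicates 1 and 2. Across tested genes the log2 levels of the spleen pair correlated at r = 0.942 and those of the tumor pair at r = 0.929, while tumor and spleen libraries correlated at 0.810 to 0.859 (genes are not independent replicates). The labelled cell type was checked on its defining genes: Cd8a measured 5451 and 7994 scaled counts in tumor against 1997 and 1713 in spleen, Cd3g measured 3223 and 5632 against 3415 and 2738, and Cd4 lay at 0 and 2.35 against 0 and 3.14. The labelled cells were thus rich in T cell and CD8 transcripts in both tissues. Vhl was at 177 and 141 in WT tumor and 138 and 111 in WT spleen, against 1.35 and 5.51 in VHL-deficient tumor and 20.1 and 9.02 in VHL-deficient spleen. The 2 tumor libraries differed from each other with transcript length. Among genes above the median level, those whose longest annotated transcript is under 1000 bases were higher in tumor replicate 2 than in replicate 1 by a median of 0.74 (log2, 346 genes), and those of 6000 bases or more lay at -0.35 (1062 genes), while the same medians between the spleen libraries were -0.37 and 0.17.

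Tumor and spleen cells differed widely. Of 14327 tested genes, 3079 (21.5%) differed between WT tumor and WT spleen at an adjusted p under 0.05, 1889 of them higher in tumor (13.2%) and 1190 lower (8.31%). All adjusted p-values are from limma on log2(scaled count + 1), adjusted by Benjamini-Hochberg over all 14327 genes. A gene that passed is said to have risen or fallen in tumor. The error of a log2 fold change is its standard error (n = 2 libraries per group). It uses a variance taken over all 22 libraries in the fit, so it does not measure the spread of the 4 compared libraries alone. Where 2 pairs of levels stand against each other, they are tumor replicates 1 and 2 against spleen replicates 1 and 2, and a value with an error alone in brackets is a log2 fold change, tumor minus spleen. Changes were often large: 984 genes rose and 474 fell by more than 2 on the log2 scale. Both tumor libraries lay above both spleen libraries for 1887 of the 1889 risen genes and below them for 1189 of the 1190 fallen ones. The call itself favours genes whose libraries are apart, so these counts are no separate support for the calls. The number of calls depended on the libraries: it was 1486 without tumor replicate 2, 1633 without spleen replicate 2, 1881 without spleen replicate 1 and 2745 without tumor replicate 1. Of all calls 61.4% were rises, and the split turned to 37.0% (1251 higher and 2132 lower) when libraries were scaled by their total reads outside ribosomal RNA and mitochondrial genes, a scaling that moved the median log2 fold change of all tested genes from 0.08 to -0.29. In bulk RNA, more or fewer cells that transcribe a gene cannot be told apart from more or less RNA of it per cell.

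**Figure D1:**
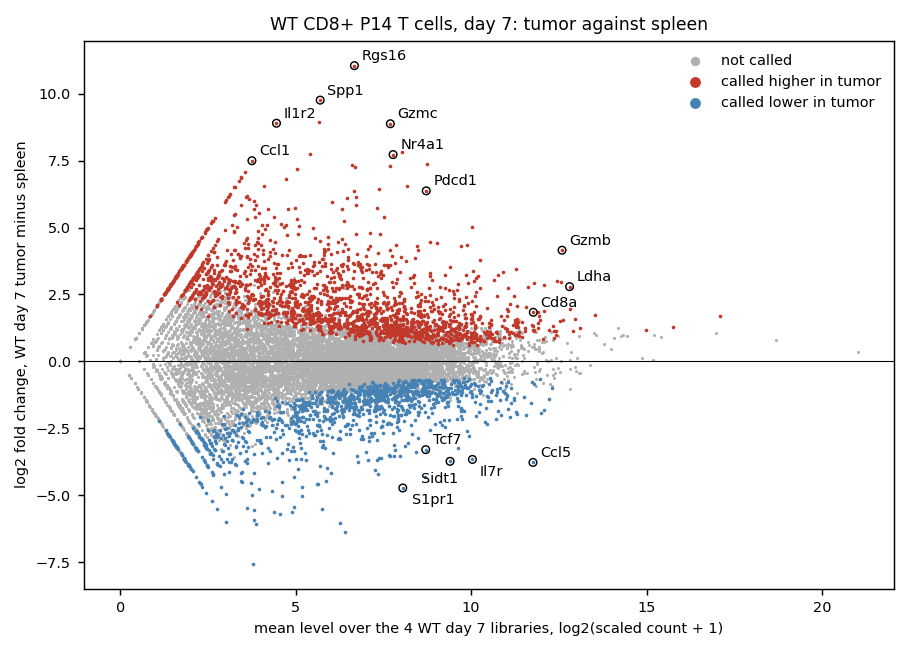
Log2 fold change of WT day 7 tumor against spleen (vertical axis) for 14327 tested genes by their mean level over the 4 libraries on the log2(scaled count + 1) scale (horizontal axis), red for the 1889 genes called higher in tumor, blue for the 1190 called lower and grey for the rest. Circles mark genes named in the text; Rgs16 lies highest at 11.05 and S1pr1 far below 0 at -4.73.

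Among called genes whose tissue groups did not overlap and whose mean level over all 22 libraries was above the median of tested genes, the 12 largest rises were Rgs16, Spp1, Atf3, Il1r2, Gzmc, Nr4a2, Serpinb9b, Nr4a1, Ccl1, Tnfrsf9, Ccl3 and Serpine2. Since 18 of the 22 libraries are from tumor and 4 from spleen, that level favours genes that are high in tumor. With the mean over the 4 compared libraries in its place, chosen after seeing the data, 7 of the 12 rises and 10 of the 12 falls below would be the same. Rgs16, a regulator that ends G protein signaling downstream of chemoattractant receptors (chromosome 1, 153740349 to 153745468, GENCODE M21 on mm10), measured 4523 and 4870.4 scaled counts in tumor against 1.39 and 1.05 in spleen, where spleen held 1 read in each library, a ratio of 3876 (exact 95% counting interval 1072 to 32009.5). Its log2 fold change was the highest of all tested genes (log2 fold change 11.05 ± 0.52, adjusted p = 1.13e-11). Spp1, which encodes the secreted protein osteopontin, followed with 980.5 and 2373 scaled counts in tumor against 0 and 2.10 in spleen, a ratio of 1189 (exact 95% counting interval 329 to 9827), although its 2 tumor libraries differed more (log2 fold change 9.76 ± 0.82, adjusted p = 5.72e-08). Il1r2, the decoy receptor for interleukin 1, was at 431 and 527 in tumor and without a read in both spleen libraries, at least 131-fold higher against a floor of 3 reads per library (log2 fold change 8.90 ± 0.54, adjusted p = 4.42e-10). Ccl1, the chemokine that binds CCR8, likewise had no spleen read and was at least 51.6-fold higher in tumor, at 131 and 247. Atf3, a stress-induced partner of AP-1 factors, measured 903 and 1380.5 against 0 and 4.19 (log2 fold change 8.94 ± 0.51, adjusted p = 1.64e-10). Serpine2, an inhibitor of serine proteases, rose from 36.2 and 6.29 in spleen to 2387 and 2773 in tumor (7.29 ± 0.54). Each of these 6 genes kept its call in every alternative run.

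The largest fall under the same limit on level was that of S1pr1, the exit receptor, at 67.6 and 37.6 scaled counts in tumor against 1289 and 1445 in spleen, 26.0-fold lower by the ratio of the means (log2 fold change -4.73 ± 0.51, adjusted p = 1.32e-06). Ccl5, an abundant chemokine of effector and memory T cells, fell from 13934 and 11859 in spleen to 1112 and 793 in tumor (log2 fold change -3.77 ± 0.58, adjusted p = 9.91e-05), against the direction of the other called chemokines. Il7r, the receptor chain for the survival cytokine interleukin 7, measured 383 and 226 against 3597 and 3874, 12.3-fold lower. Sidt1, a member of a family of nucleic acid transporters, measured 218 and 155 against 2240.4 and 2699.9 (-3.73 ± 0.40). Mylip, a ubiquitin ligase that acts on the low-density lipoprotein receptor, stood at 32.7 and 25.9 against 405 and 400.2 (-3.75 ± 0.55). Pik3ip1, an inhibitor of phosphoinositide 3-kinase, lay at 58.9 and 58.8 in tumor and 733 and 667 in spleen, and Abcg1, a cholesterol exporter, at 65.4 and 14.1 in tumor and 328 and 415 in spleen. St3gal6, a sialyltransferase, Nod1, a sensor of bacterial peptidoglycan, Lpar6, a receptor for lysophosphatidic acid, Rasgrp2, the activator of Rap1 in integrin signaling, and Cmah, which makes a form of sialic acid, completed the set, with log2 fold changes of -3.61 to -3.38. Another 18 genes, among them Klf3 (described with the exit genes), had larger called falls without overlap but a mean level over the 22 libraries below the limit.

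**Figure D2:**
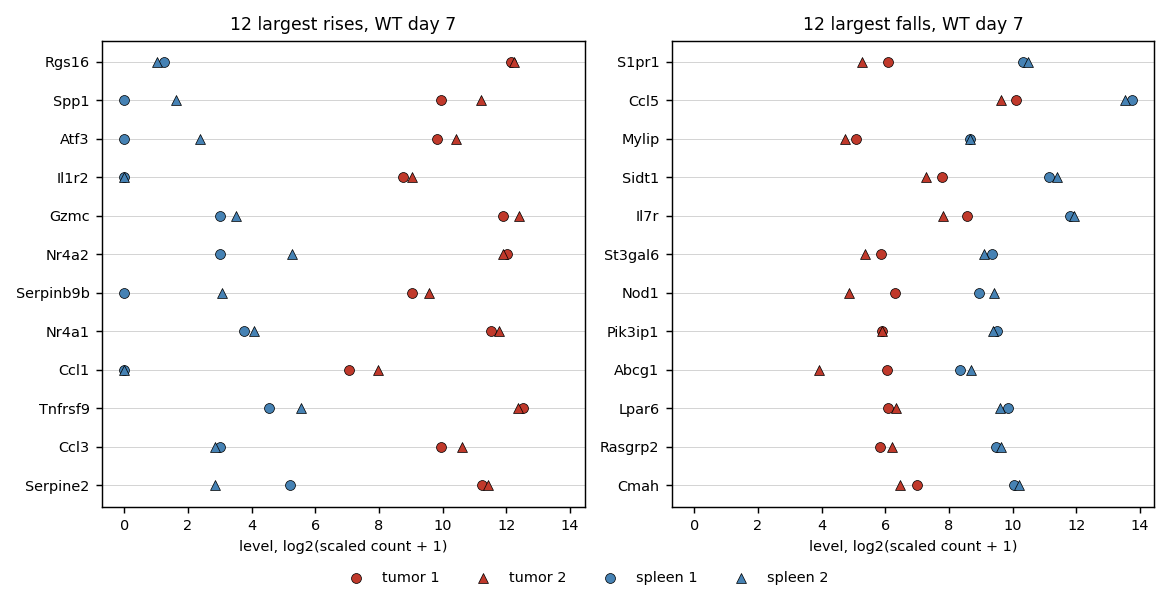
Level in each WT day 7 library, on the log2(scaled count + 1) scale, of the 12 genes with the largest rise (left) and the 12 with the largest fall (right) under the naming rule, with tumor in red, spleen in blue, circles for replicate 1 and triangles for replicate 2. The rule takes only genes whose red and blue symbols are apart, and the levels run from 0 scaled counts of Il1r2 and Ccl1 in spleen to 13934 and 11859 of Ccl5 there.

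Promoters of 3 of these genes are shown because they hold the matches found, or the largest change, among 6 genes: the 3 largest rises and 3 largest falls with a single promoter in the sequence table (Rgs16, Atf3 and Il1r2 of the rises, Mylip, Sidt1 and Il7r of the falls). Each runs from 250 bases before to 50 after the start, 5′ to 3′ on the gene's strand, from RefSeq on GRCm38.p6, with matches of ACGTG on either strand in capitals. ACGTG is the core of the hypoxia response element that HIF binds. The table held 32851 promoters, and 7456 tested genes had 1 promoter in it.
Il1r2, chr1:40085843-40086142, plus strand: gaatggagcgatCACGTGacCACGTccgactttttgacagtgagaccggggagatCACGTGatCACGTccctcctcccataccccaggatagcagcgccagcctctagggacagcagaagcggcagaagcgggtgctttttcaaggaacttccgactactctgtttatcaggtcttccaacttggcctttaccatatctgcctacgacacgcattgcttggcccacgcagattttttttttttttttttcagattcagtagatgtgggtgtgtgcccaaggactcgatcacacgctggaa
Sidt1, chr16:44332789-44333088, minus strand: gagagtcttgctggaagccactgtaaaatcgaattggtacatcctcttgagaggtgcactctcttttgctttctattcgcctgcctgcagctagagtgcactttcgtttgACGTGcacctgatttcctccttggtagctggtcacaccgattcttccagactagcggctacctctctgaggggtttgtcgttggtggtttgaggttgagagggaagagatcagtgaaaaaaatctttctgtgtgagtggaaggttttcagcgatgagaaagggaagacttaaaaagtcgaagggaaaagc
Rgs16, chr1:153740103-153740402, plus strand: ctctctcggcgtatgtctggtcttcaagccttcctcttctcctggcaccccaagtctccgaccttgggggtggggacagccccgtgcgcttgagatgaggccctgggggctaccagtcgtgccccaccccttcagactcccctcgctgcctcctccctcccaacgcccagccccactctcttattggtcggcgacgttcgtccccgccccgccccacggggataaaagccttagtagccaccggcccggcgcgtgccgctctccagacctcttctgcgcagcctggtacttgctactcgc
The Il1r2 promoter held 6 matches of ACGTG, some of them overlapping on opposite strands, Sidt1 held 1, and the other 4 held none. TGANTCA, the AP-1 site, AAAGGTCA, the NR4A monomer site, and CCACACCC, a KLF site, had no match in the 6. Over all promoters of this length the shares were 19.6% for ACGTG, 7.81% for TGANTCA, 1.51% for AAAGGTCA and 3.56% for CCACACCC, on both strands. Among tested genes with 1 promoter, ACGTG stood in 26.4% of all, 29.0% of the 991 that rose and 22.3% of the 609 that fell, and TGANTCA in 4.68%, 5.85% and 5.42%. A match is a run of letters and was not tested as a binding site, and no match says only that the letters are not in this window.

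Many immediate early transcription factors, which follow T cell receptor signals, rose. In the list of immediate early factors, 16 of 26 tested genes rose and 1 fell (Ier3, which like other members named here only to complete a count was named after its values were seen), with a median log2 fold change of 2.00 against 0.08 over all tested genes, and 11 to 14 rose when 1 of the 4 libraries was left out. Junb, a component of AP-1, measured 14268 and 17607 scaled counts in tumor against 1685 and 2372 in spleen (log2 fold change 2.99 ± 0.33, adjusted p = 2.30e-06). Fosl2, a Fos-related partner, stood at 1158 and 875 against 119.7 and 96.4 (3.22 ± 0.31). Klf6, a zinc finger factor, rose from 966 and 1124 to 3207 and 5174 (1.97 ± 0.27). Jun itself, at 614 and 1261 against 914 and 1379.8, overlapped between the tissues (adjusted p = 0.523). Nfkbia, the inhibitor of NF-kappa B, stood at 3796 and 5216 against 1773 and 1334 and did not pass (adjusted p = 0.0795).

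The NR4A nuclear receptors, induced by receptor signaling, rose together. Nr4a1 measured 2937 and 3452 scaled counts in tumor against 12.5 and 15.7 in spleen (log2 fold change 7.73 ± 0.37, adjusted p = 1.25e-11), Nr4a2 4139 and 3769.8 against 6.96 and 37.7 (7.81 ± 0.44). Nr4a3 stood at 476 and 543 against 18.1 and 8.38 (5.25 ± 0.34). Egr3, which follows NFAT activity, stood at 98.2 and 101 against 20.9 and 15.7 (log2 fold change 2.40 ± 0.35, adjusted p = 5.74e-05). Tox, a factor of exhausted T cells, was at 111 and 113 against 50.1 and 52.4, higher in both tumor libraries but short of the threshold (log2 fold change 1.11 ± 0.46, adjusted p = 0.0927). Nfatc1 stood at 612 and 656 against 480.1 and 512 (adjusted p = 0.242). Of the 11 tested genes of the NR4A, TOX and NFAT list 5 rose, namely Nr4a1, Nr4a2, Nr4a3, Egr2 and Egr3. Egr2 and Egr3 are also counted in the list of immediate early factors, and no TOX or NFAT gene rose. The only fall was that of Nfatc3, which was named after its values were seen at 311 and 303 against 909 and 766. Irf4 and Irf8, interferon regulatory factors that are raised by receptor signals in T cells, were far higher in tumor, Irf4 at 1116 and 701 scaled counts in tumor against 34.8 and 28.3 in spleen (log2 fold change 4.77 ± 0.31, adjusted p = 1.54e-09). Irf8 stood at 2779.9 and 2853 against 39.0 and 21.0 (log2 fold change 6.57 ± 0.34, adjusted p = 3.74e-11). Bhlhe40, a factor of tissue-resident cells, rose from 725 and 781 to 10197 and 6594, and Nfil3, a basic leucine zipper repressor, from 72.4 and 38.8 to 498 and 492 (3.44 ± 0.33 and 3.20 ± 0.32). Tbx21, which encodes T-bet, lay at 1067 and 1155 against 1184 and 1053 with overlapping groups (adjusted p = 0.994). Id2 stood at 1485 and 1943 against 4518 and 3242, lower in both tumor libraries without passing (adjusted p = 0.0592). Over the list of effector and residency factors 8 of 20 rose and 1 fell, Gata3. That list's median, 0.24, became -0.15 under scaling by total reads.

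Inhibitory receptors were split. Pdcd1, which encodes PD-1, measured 4034 and 3645 scaled counts in tumor against 44.5 and 46.1 in spleen, 84.7-fold higher (log2 fold change 6.37 ± 0.40, adjusted p = 9.03e-10). Lag3, a receptor for class II MHC, stood at 5576 and 6340.3 against 178 and 191 (32.3-fold higher, adjusted p = 2.20e-11). Havcr2, which encodes TIM-3, stood at 1347 and 1025 against 19.5 and 37.7 (log2 fold change 5.38 ± 0.39, adjusted p = 7.17e-09). Ctla4, the competitor of CD28, stood at 3804 and 3666 against 255 and 139 (log2 fold change 4.30 ± 0.31, adjusted p = 5.06e-09). In contrast Cd96 at 831 and 1268 against 1154 and 970.2 and Lilr4b at 744 and 235 against 348 and 608 overlapped between tissues (adjusted p = 0.922 and 0.884). Of 21 tested members 8 rose and 2 fell (Vsir and Klrc2), with 6 to 8 rising when a library was left out. The 8 rises and 2 falls are 38.1% and 9.52% of the list, beside 13.2% and 8.31% of all tested genes. The list's median was 0.35, and -0.04 under scaling by total reads.

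Costimulatory receptors and their ligands rose in part. Of the tested members 40.9% rose and 9.09% fell, beside 13.2% and 8.31% of all tested genes. Tnfrsf9, which encodes 4-1BB, was at 5866 and 5247 scaled counts in tumor against 22.3 and 46.1 in spleen (log2 fold change 7.39 ± 0.34, adjusted p = 1.13e-11). Tnfrsf4, which encodes OX40, stood at 723 and 877 against 6.96 and 23.0 (log2 fold change 5.85 ± 0.56, adjusted p = 3.36e-07). The OX40 ligand Tnfsf4 had no spleen read and 147 and 54.1 in tumor, at least 27.5-fold higher. Cd226, an activating receptor that shares ligands with TIGIT, fell from 793 and 863 to 336 and 365 (log2 fold change -1.24 ± 0.22, adjusted p = 4.40e-04). Cd27 and Cd2 gave 1497 and 1952 against 2117 and 1714 for Cd27 and 1518 and 1801 against 3057 and 2359 for Cd2 and did not pass (adjusted p = 0.766 and 0.125). In all, 9 of 22 rose and 2 fell (Cd226 and Cd48), and 5 to 7 rose with a library left out.

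Most genes of the cytotoxic granules rose, and Gzma did not pass. Gzmb, the main granzyme of cytotoxic T cells, measured 23044 and 29394 scaled counts in tumor against 1727 and 1236 in spleen (log2 fold change 4.15 ± 0.53, adjusted p = 1.27e-05). Prf1, the pore-forming perforin, stood at 4495 and 4708 against 626 and 508 (log2 fold change 3.03 ± 0.47, adjusted p = 1.17e-04). Gzmc went from 6.96 and 10.5 in spleen to 3771 and 5364 in tumor (8.88 ± 0.89). Gzmd, without a spleen read, stood at 135 and 98.8, at least 32.0-fold higher. Granzymes C and D are close paralogs, so reads may be divided between them by the counting. Gzma, in contrast, was at 1283 and 1124 against 1927 and 1752, lower in both tumor libraries but not past the threshold (log2 fold change -0.61 ± 0.65, adjusted p = 0.536). Serpinb9, the inhibitor that protects killer cells from granzyme B, rose from 633 and 521 to 5907 and 4854 and Serpinb6b, a related serpin, from 888 and 746 to 5527 and 5298 (3.22 ± 0.34 and 2.73 ± 0.29). Serpinb9b stood at 519 and 759.6 against 0 and 7.33. The voom test on recovered reads did not call Serpinb9b or Gzmd. Of 22 tested granule genes 14 rose and 0 fell, and 10 to 12 rose when a library was left out.

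Many of the tested cytokine and chemokine genes rose strongly. Ifng, the interferon that activates macrophages and antigen presentation, measured 1089.5 and 2081 scaled counts in tumor against 76.5 and 90.1 in spleen (log2 fold change 4.16 ± 0.49, adjusted p = 4.61e-06). Csf1, the macrophage growth factor, stood at 462 and 397 against 15.3 and 43.0 (14.8-fold higher, adjusted p = 4.18e-07). Il16, a chemoattractant for CD4+ cells, fell from 1781 and 1605 to 422 and 515 (log2 fold change -1.86 ± 0.29, adjusted p = 1.33e-04), the only fall among the 14 tested cytokines, of which 10 rose (6 to 9 with a library left out). Il2 was near its detection limit at 5.45 and 4.70 in tumor, with no spleen read. Ccl3 and Ccl4, inflammatory chemokines, stood at 990.3 and 1564 against 6.96 and 6.29 for Ccl3 and 1752 and 3368 against 113 and 110.0 for Ccl4 (7.35 ± 0.67 and 4.43 ± 0.44). Xcl1, which draws cross-presenting dendritic cells, stood at 858 and 1898 against 12.5 and 4.19 (7.25 ± 0.65). Of 8 tested chemokines 6 rose and 1 fell, which was Ccl5. Tested genes needed 10 scaled counts in 2 of the 22 libraries, 18 of them from tumor, which favours genes high in tumor. Of the listed genes, 14 of 19 cytokines and 8 of 13 chemokines were tested. Areg, Il3 and Lif had no WT spleen read and so passed only through other libraries. The shares of rises therefore hold for the tested members only.

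Most genes of exit and circulation fell. Of 30 tested members 18 fell and 2 rose, with a median of -1.89, and 14 to 15 fell when a library was left out. Besides S1pr1, S1pr4, a second sphingosine phosphate receptor, fell from 2606 and 1992 to 564 and 670.2 (log2 fold change -1.89 ± 0.27, adjusted p = 5.32e-05). Klf3, a Klf2-related repressor, was at 7.63 and 9.41 against 674 and 577 (log2 fold change -6.04 ± 0.66, adjusted p = 1.65e-06). Klf2, which drives S1pr1, stood at 20.7 and 44.7 against 156 and 142 (log2 fold change -2.25 ± 0.53, adjusted p = 0.00474), a call lost without tumor replicate 1 and with only the 2 compared groups in the fit. Ripor2, a RhoA inhibitor, gave 425 and 329 against 2332 and 2856 (-2.78 ± 0.29). Ccr7, a lymph node homing receptor, went the opposite way, 10.6-fold higher at 8490.3 and 4417 scaled counts in tumor against 621 and 597 in spleen (log2 fold change 3.33 ± 0.52, adjusted p = 1.14e-04). Cx3cr1, the receptor of circulating effector cells, was the other member to rise. Klrg1, a mark of terminal effectors, was near its detection limit at 1.09 and 0 against 11.1 and 11.5, and its call was lost in 8 alternatives. Ly6c2 and Itgb2, at 2294 and 4435 against 6472 and 4707 for Ly6c2 and 4471 and 4725 against 4581 and 4365 for Itgb2, did not pass (adjusted p = 0.230 and 0.938).

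The residency list was divided. Of 28 tested members 16 rose and 5 fell (median 1.82). Several risen members are described above as signaling or granule genes (Nr4a1, Nr4a2, Gzmb, Ctla4, Xcl1), to which Rgs2, a G protein regulator, added 3789.8 and 4675 against 177 and 244 (log2 fold change 4.33 ± 0.30, adjusted p = 4.26e-09). Litaf, an endosomal protein, stood at 1505 and 1620.3 against 22.3 and 12.6 (log2 fold change 6.46 ± 0.40, adjusted p = 6.82e-10). Ccr8, the receptor for CCL1, stood at 253 and 313 against 0 and 5.24 (6.82 ± 0.55). Itgae, the alpha chain of CD103 that binds E-cadherin, fell to 2.18 and 4.70 scaled counts in tumor from 102 and 183 in spleen (log2 fold change -5.01 ± 0.68, adjusted p = 2.60e-05), and the other falls were the integrin chains Itga1 and Itgb7, with Ldlrad4 and Qpct. Cd69, which blocks S1P receptor 1 at the surface, measured 1671 and 4386 against 1222 and 1244, higher in both tumor libraries without passing (log2 fold change 1.13 ± 0.56, adjusted p = 0.159). Cxcr6, a chemokine receptor of resident cells, was high in both tissues at 4509.6 and 5988 against 7005 and 5520.3 (adjusted p = 0.581).

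Integrins and adhesion genes fell more often than they rose, 12 against 2 of 25 tested, with 6 to 9 falls when a library was left out. Itga2, a collagen receptor chain, fell from 163 and 229 to 36.0 and 35.3 (log2 fold change -2.41 ± 0.40, adjusted p = 2.03e-04). Itgax, which encodes CD11c and is found on some activated T cells, fell from 781 and 1203 to 251 and 68.2 (log2 fold change -2.88 ± 0.60, adjusted p = 0.00189), a call lost without tumor replicate 2. Itgav, which pairs with beta chains that activate transforming growth factor beta, rose from 135 and 107 to 755 and 499 (log2 fold change 2.34 ± 0.36, adjusted p = 1.03e-04). Jaml was the other rise. The falls are 48% and the rises 8% of the list, beside 8.31% and 13.2% of all tested genes. Selplg, the selectin ligand, was at 3622 and 4939 against 6653 and 6417 (adjusted p = 0.151). The list of chemokine and other chemoattractant receptors had 6 rises and 5 falls of 22, both fewer when any of the 4 libraries was left out. Rises were Ccr8, Ccr7, Ccrl2, Cx3cr1, Gpr65 and Ptger2, and falls S1pr1, Ccr9, Cxcr3, Ccr2 and S1pr4. Of these, S1pr1, S1pr4, Ccr7 and Cx3cr1 are also counted with the exit genes and Ccr8 with the residency list. Ccrl2, a non-signaling receptor, measured 279 and 195 against 41.7 and 23.0 (2.87 ± 0.42).

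Factors of stem-like and memory cells tended lower, with exceptions. Tcf7, which encodes TCF-1, measured 137 and 127 scaled counts in tumor against 1251 and 1364 in spleen, 9.89-fold lower (log2 fold change -3.30 ± 0.62, adjusted p = 7.14e-04), and its relative Lef1 281 and 256 against 728 and 719 (log2 fold change -1.43 ± 0.32, adjusted p = 0.00312). Myb, which is linked to self-renewal, rose from 26.4 and 10.5 to 199.6 and 87.0 (log2 fold change 2.90 ± 0.61, adjusted p = 0.00204), as did Bach2. The call of Myb was lost with only the 2 compared groups in the fit. Foxo1 and Ets1 stood at 535 and 259 against 543 and 361 for Foxo1 and 2203 and 1089 against 2289 and 3256 for Ets1 and did not pass (adjusted p = 0.702 and 0.187). In this list 43.8% of tested genes fell and 12.5% rose, beside 8.31% and 13.2% of all tested genes. Of 16 tested genes 7 fell and 2 rose, and 2 to 5 fell when a library was left out. Interleukin receptors fell in 8 and rose in 4 of 26 (3 to 4 falls with a library left out). The falls are 30.8% and the rises 15.4% of the list, beside 8.31% and 13.2% of all tested genes. Il2ra, the high-affinity chain of the interleukin 2 receptor, rose from 124 and 90.1 to 673 and 574 (log2 fold change 2.54 ± 0.25, adjusted p = 5.76e-07), while the shared gamma chain Il2rg overlapped at 2014 and 2979.7 against 2791 and 2424 (adjusted p = 0.857). Il17ra fell from 1344 and 1473 to 474 and 198 (log2 fold change -2.20 ± 0.45, adjusted p = 0.00166), a call lost without tumor replicate 2.

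**Figure D3:**
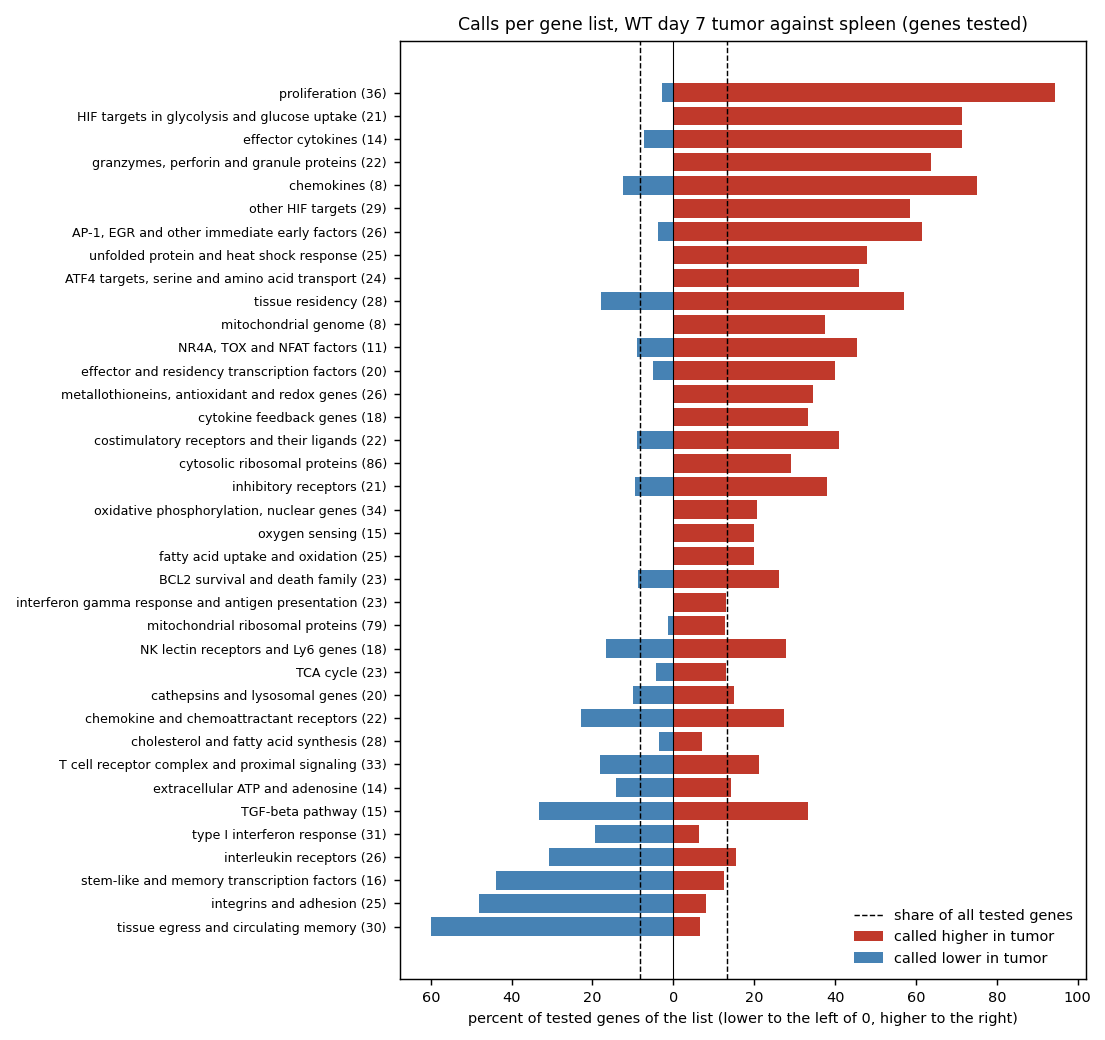
Share of the tested genes of each list that was called higher (red, to the right of 0) or lower (blue, to the left of 0) in WT day 7 tumor than in spleen, in percent, for lists with 8 or more tested genes, whose number stands in brackets; dashed lines give the same shares over all tested genes, 13.2% and 8.31%. Proliferation leads the rises (34 of 36) and tissue egress the falls (18 of 30).

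Among cytokine feedback genes, a list that also holds STAT factors and Pim kinases, 6 of 18 rose and none fell. Pim3, a serine kinase, stood at 949.9 and 854 against 192 and 129.9 (log2 fold change 2.50 ± 0.34, adjusted p = 2.58e-05). Dusp5, a phosphatase of nuclear ERK, stood at 715 and 555 against 89.1 and 76.5 (log2 fold change 2.92 ± 0.35, adjusted p = 6.30e-06), Stat3 at 5610.1 and 2979.7 against 1049 and 1159.8 (log2 fold change 1.89 ± 0.34, adjusted p = 4.28e-04). Socs1 stood at 135 and 155 against 64.0 and 45.1 (log2 fold change 1.41 ± 0.36, adjusted p = 0.00872), a call lost without tumor replicate 2 or spleen replicate 2 and under scaling by total reads. Ptpn2, a tyrosine phosphatase, stood at 639 and 710.2 against 711 and 603 and did not pass (adjusted p = 0.919). The list of the T cell receptor complex and proximal signaling had 7 rises and 6 falls of 33 and a median of -0.01. The shares are 21.2% and 18.2%, beside 13.2% and 8.31% of all tested genes. Rises were Rgs16, Spry1, Spry2, Ubash3b, Cd8a, Cblb and Zap70. Falls were Dgka, Grap2, Tespa1, Prkcq, Cbl and Ubash3a, so no CD3 chain was called in this list. Its falls numbered 3 and 2 without tumor replicate 1 and 2, 1 without either spleen library and 12 under scaling by total reads. Within it Cd8a rose (log2 fold change 1.83 ± 0.37, adjusted p = 0.00142), whereas Cd8b1, named after its values were seen, was at 2982 and 4497 against 7467 and 6489 (log2 fold change -0.93 ± 0.44, adjusted p = 0.137). Lck, the kinase bound to CD8, was at 6478 and 8544 against 8758 and 8588 and did not pass (adjusted p = 0.567). Ubash3b, a phosphatase that dampens ZAP-70, rose from 106 and 95.3 to 559 and 675 (log2 fold change 2.60 ± 0.33, adjusted p = 1.03e-05). Dgka, which consumes diacylglycerol, fell from 4813 and 5315 to 1290.2 and 1284 (log2 fold change -1.97 ± 0.32, adjusted p = 1.78e-04). Of the transforming growth factor beta genes 5 rose and 5 fell of 15: Smad3 went from 369 and 396 to 103 and 28.2 (-2.80 ± 0.62, lost without tumor replicate 2), Tgif1, a corepressor, from 142 and 96.4 to 856 and 771 (2.79 ± 0.48). The falls were 2 without tumor replicate 2 and 3 without spleen replicate 2, and the rises 3 without tumor replicate 1 or either spleen library and under scaling by total reads. Tgfbr2 overlapped at 978 and 569 against 803 and 678 (adjusted p = 0.984).

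Nearly all tested cell division genes rose. Of 36 tested members 34 rose and 1 fell, Cdkn1b, which encodes the p27 inhibitor, with a median of 3.05, and 27 to 28 rose when a library was left out. Mki67, present in dividing cells, measured 1297 and 1893 scaled counts in tumor against 219.9 and 252 in spleen (log2 fold change 2.73 ± 0.28, adjusted p = 9.19e-07). Cenpa, the centromeric histone, stood at 1575 and 1778 against 278 and 245 (2.67 ± 0.25). Cenpe, a kinetochore motor, stood at 366 and 790.2 against 13.9 and 26.2 (4.74 ± 0.44). Cdkn1a, which encodes the p21 inhibitor, also rose, from 9.74 and 9.43 to 708 and 734 (log2 fold change 6.09 ± 0.50, adjusted p = 4.28e-08). Cdkn2d overlapped at 249.7 and 444 against 518 and 393 (adjusted p = 0.461). In the BCL2 and caspase list 6 of 23 rose and 2 fell. These are 26.1% and 8.70%, beside 13.2% and 8.31% of all tested genes. Bcl2l11, which encodes the death-promoting BIM, rose from 164 and 162 to 1789.7 and 1030.1 (log2 fold change 3.05 ± 0.33, adjusted p = 1.44e-06). Bcl2a1b, of a family of near-identical copies whose reads may be divided, stood at 195 and 207 against 30.6 and 15.7 (3.14 ± 0.43). Bcl2 fell from 1141 and 1064 to 636 and 569 (log2 fold change -0.87 ± 0.22, adjusted p = 0.00892), a call lost without tumor replicate 2 or spleen replicate 1. Mcl1 overlapped at 497 and 362 against 369 and 279 with an adjusted p of 0.470.

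Many HIF targets rose. In the glycolysis and glucose uptake list 15 of 21 tested genes rose and 0 fell (median 2.23, 1.85 under scaling by total reads), with 13 to 15 rising when a library was left out. Slc16a3, which exports lactate, measured 736 and 722 scaled counts in tumor against 30.6 and 21.0 in spleen (log2 fold change 4.79 ± 0.30, adjusted p = 7.60e-10). Tpi1, the triose phosphate isomerase, stood at 3807 and 5385 against 379.9 and 285 (3.78 ± 0.32). Pgk1, phosphoglycerate kinase, stood at 1144 and 1632 against 159 and 140.4 (3.19 ± 0.25). Pkm, pyruvate kinase, stood at 9544 and 9793 against 1258 and 1303 (2.92 ± 0.29). Ldha, which makes lactate, reached 15489 and 22962 against 2968 and 2489 (log2 fold change 2.79 ± 0.36, adjusted p = 1.30e-05). Slc2a1, the glucose transporter GLUT1, rose less, from 131 and 152 to 316 and 287 (log2 fold change 1.09 ± 0.28, adjusted p = 0.00952), and lost its call without spleen replicate 1 and under scaling by total reads. Slc2a3, which encodes GLUT3, and Hk1, a hexokinase, were at 1735 and 388 against 344 and 508 for Slc2a3 and 1079 and 334 against 320.1 and 607 for Hk1 and overlapped between the tissues (adjusted p = 0.362 and 0.676), and in both genes tumor replicate 1 was the highest of the 4 libraries and tumor replicate 2 lay within or near the spleen values.

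Of the other HIF targets 17 of 29 rose and 0 fell (median 1.90, 13 to 16 rises with a library left out). Hilpda, a lipid droplet protein, measured 1189.8 and 905 scaled counts in tumor against 68.2 and 36.7 in spleen (log2 fold change 4.35 ± 0.54, adjusted p = 9.10e-06). Plin2, the droplet coat protein, stood at 176 and 239.9 against 72.4 and 25.1 (2.24 ± 0.42). P4ha2, a collagen prolyl hydroxylase, had no spleen read and 12.0 and 16.5 in tumor, at least 3.89-fold higher. Bnip3l, a mitophagy receptor, at 299 and 275 against 377 and 398, and Kdm3a, a histone demethylase, at 442 and 136 against 250.5 and 481, did not pass (adjusted p = 0.132 and 0.528). The oxygen-sensing genes themselves were mostly below the threshold, with 3 of 15 risen (2 without tumor replicate 2 or spleen replicate 1, 5 without VHL-deficient nonTrm replicate 2). The 3 risen genes are 20% of the list, beside 13.2% of all tested genes. Hif1a rose from 412 and 511 to 3669 and 2109.5 (log2 fold change 2.60 ± 0.29, adjusted p = 2.05e-06). Egln3, a HIF prolyl hydroxylase that is itself a HIF target, rose from 23.7 and 31.4 to 122 and 125 (log2 fold change 2.14 ± 0.29, adjusted p = 2.45e-05). Eloc, the elongin C subunit of the VHL ligase, stood at 299.9 and 325 against 127 and 144 (1.20 ± 0.32) and lost its call without tumor replicate 2 or spleen replicate 1. Egln2 and Cul2 did not pass, at 205 and 212 against 239 and 241 for Egln2 and 340.3 and 242 against 270.0 and 272 for Cul2 (adjusted p = 0.624 and 0.940).

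Amino acid, stress and redox genes rose in part, and no member of these lists fell. Of ATF4 targets, serine enzymes and amino acid carriers 11 of 24 rose (median 1.29). Atf4, the factor of the integrated stress response, stood at 1633 and 1740.3 scaled counts in tumor against 486 and 402 in spleen (log2 fold change 1.93 ± 0.29, adjusted p = 8.32e-05), Psat1 and Phgdh, enzymes of serine synthesis, at 1023 and 1265 against 206 and 245 for Psat1 and 849.6 and 1383 against 263 and 262 for Phgdh (2.33 ± 0.38 and 2.04 ± 0.34). Slc3a2, a heavy chain of amino acid exchangers, stood at 3496 and 3172 against 1060.4 and 971 (1.71 ± 0.27). Slc1a5 and Slc38a1, glutamine carriers, stood at 1877 and 1653 against 1193 and 1352 for Slc1a5 and 1421 and 1269.9 against 948 and 848 for Slc38a1 and did not pass (adjusted p = 0.196 and 0.149). Among chaperones 12 of 25 rose: Hspa5, the chaperone of the endoplasmic reticulum, went from 2311 and 2166 to 8275 and 8409.8 (log2 fold change 1.90 ± 0.29, adjusted p = 1.07e-04), and Hspa8, Hsp90ab1 and Hspd1 by 1.59 ± 0.31, 1.74 ± 0.32 and 1.70 ± 0.32. Canx and Pdia4 lay at 2335 and 1223 against 747 and 1184 for Canx and 1256 and 1371 against 869.7 and 941 for Pdia4 (adjusted p = 0.162 and 0.404). In the redox list 9 of 26 rose, 6 without tumor replicate 1, and 5 without tumor replicate 2, without either spleen library or under scaling by total reads. The metallothioneins, which bind zinc and copper, went from 4.17 and 27.2 to 262 and 341 for Mt1 (log2 fold change 4.63 ± 0.73, adjusted p = 1.36e-04) and from no read to 53.4 and 70.6 for Mt2, at least 16.9-fold higher, which voom did not call. Txn1, thioredoxin, rose from 313 and 262 to 947 and 1733 (2.16 ± 0.43). Osgin1, a target of the antioxidant factor NRF2, rose from 16.7 and 13.6 to 107 and 65.8 (2.40 ± 0.44), while the ferritin chains Fth1 and Ftl1 did not pass (adjusted p = 0.373 and 0.273).

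Ribosomal protein and mitochondrial genes rose in part, and their counts moved with the libraries used. Of 86 tested cytosolic ribosomal protein genes 25 rose and 0 fell (median 1.15), and without tumor replicate 2 the count was 1 and the median 0.68. The count was 9 and 4 without spleen replicate 1 and 2, 15 under scaling by total reads, 41 without tumor replicate 1 and 63 without VHL-deficient nonTrm replicate 2. In the VHL-deficient cells 0 of them rose and 0 fell, with a median of 0.12. Nuclear genes of oxidative phosphorylation rose in 7 of 34, in 1 without tumor replicate 2 or spleen replicate 2, in 3 without spleen replicate 1, in 2 under scaling by total reads, in 14 without tumor replicate 1 and in 18 without VHL-deficient nonTrm replicate 2. The 7 risen genes of the 34 are 20.6%, beside 13.2% of all tested genes. Atp5b, a subunit of ATP synthase, stood at 8766 and 12800.5 scaled counts in tumor against 4088 and 3288 in spleen (log2 fold change 1.53 ± 0.28, adjusted p = 5.21e-04). The call of Atp5b was lost with only the 2 compared groups in the fit. Cox7a2, of cytochrome oxidase, stood at 330.5 and 576 against 150.3 and 103 (log2 fold change 1.80 ± 0.42, adjusted p = 0.00474), a call lost without tumor replicate 2 or spleen replicate 2. Cox4i1 and Sdha, at 2501 and 4440.1 against 2242 and 1493 for Cox4i1 and 1663 and 1592 against 1625 and 1699 for Sdha, did not pass (adjusted p = 0.205 and 0.973). Mitochondrial genome transcripts rose in 3 of 8 (mt-Nd1, mt-Nd5 and mt-Cytb), in 0 without tumor replicate 2 or spleen replicate 2, in 1 without spleen replicate 1 or under scaling by total reads and in 5 without VHL-deficient nonTrm replicate 2. The call of mt-Cytb was lost in 13 alternatives, that of mt-Nd1 in 5 and that of mt-Nd5 in 3. The transcript mt-Co1 was at 45485 and 79507 against 33252 and 30623 (adjusted p = 0.106). Beside these counts stands the length pattern between the tumor libraries: genes with transcripts under 1000 bases were above the spleen mean by a median of 0.50 in tumor replicate 1 and 1.22 in replicate 2, and those of 6000 bases or more at -0.09 and -0.51. Its part in these results was not tested. Tricarboxylic acid cycle genes rose in 3 of 23 (13.0%, beside 13.2% of all tested genes), in 1 without tumor replicate 2 or spleen replicate 2, in 2 without spleen replicate 1 and in 7 without VHL-deficient nonTrm replicate 2. They fell in 1, Idh1, the cytosolic isocitrate dehydrogenase, from 44.5 and 47.1 to 3.27 and 9.41 (log2 fold change -2.81 ± 0.74, adjusted p = 0.0107), a call lost without tumor replicate 1 and without either spleen library. Fatty acid uptake and oxidation genes rose in 5 of 25, in 2 without tumor replicate 2 and in 3 without spleen replicate 2. The 5 risen genes of the 25 are 20%, beside 13.2% of all tested genes. Acadl, an acyl-CoA dehydrogenase, was at 982 and 1526 against 430.0 and 437 (2.89-fold higher, adjusted p = 0.00119), and Fabp5, Plin2 and Etfb rose by more. The call of Fabp5 was lost in 3 alternatives, that of Etfb in 2 and that of Plin2 in 1.

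Of 31 type I interferon response genes 6 fell and 2 rose (2 to 7 falls with a library left out, and 12 without VHL-deficient nonTrm replicate 2 or under scaling by total reads). The falls are 19.4% and the rises 6.45% of the list, beside 8.31% and 13.2% of all tested genes. Of the Ifi200 family of nuclear sensors, whose near-identical members may share reads, Ifi203 fell from 675 and 728 to 188 and 186 (log2 fold change -1.90 ± 0.28, adjusted p = 6.39e-05) and Ifi208 fell from 626 and 482 to 157 and 129 (log2 fold change -1.94 ± 0.30, adjusted p = 1.12e-04). Ifi27l2a, in contrast, rose from 337 and 142 to 759 and 1359 (log2 fold change 2.21 ± 0.67, adjusted p = 0.0238), a call lost without tumor replicate 2 or spleen replicate 2. Of 23 genes of interferon gamma response and antigen presentation 3 rose (13.0%, beside 13.2% of all tested genes), and 1 without tumor replicate 2, without spleen replicate 2 or under scaling by total reads. Irf1 rose, at 4511 and 4943 against 1805 and 1577 (log2 fold change 1.48 ± 0.35, adjusted p = 0.00492), and the class I genes H2-K1 and H2-D1 overlapped, at 33177 and 43032 against 41759 and 32586 for H2-K1 and 25967 and 38025 against 31384 and 25697 for H2-D1 (adjusted p = 0.967 and 0.837). Among lectin receptors, Klre1, a partner of inhibitory and activating NK receptors, rose from 29.2 and 18.9 to 251 and 444 (log2 fold change 3.77 ± 0.49, adjusted p = 1.48e-05). Klra5, a member of the Ly49 family, went from no read to 76.3 and 181, at least 35.2-fold higher, a call that voom did not make. Cd7, an immunoglobulin-family receptor of T and NK cells, fell from 383 and 338 to 9.82 and 4.70 (log2 fold change -5.52 ± 0.65, adjusted p = 5.01e-06). Klrk1, which encodes NKG2D, overlapped at 4088 and 5284 against 4733 and 4496 (adjusted p = 0.985). Of purinergic genes, Slc29a1, the nucleoside transporter, rose from 184 and 209.5 to 911 and 983 (log2 fold change 2.26 ± 0.27, adjusted p = 5.46e-06), Art2b, a surface ADP-ribosyltransferase, fell from 310.3 and 237 to 10.9 and 11.8 (-4.46 ± 0.59). Dpp4, which encodes CD26, fell from 1033 and 1252 to 489 and 268 (-1.65 ± 0.35, lost without tumor replicate 2). Cathepsins, cystatins and lysosomal genes had 3 rises (Cst7, Cst3 and Ctsb) and 2 falls (Ctsa and Psap) of 20, and 1 rise and 1 fall without tumor replicate 2. The 3 rises and 2 falls are 15% and 10% of this list, beside 13.2% and 8.31% of all tested genes. Ctsb, cathepsin B, lost its call in 8 alternatives. Cst7, cystatin F, rose from 481 and 380.3 to 1395 and 2432 (2.10 ± 0.38) and Ctsa, cathepsin A, fell from 2240.4 and 2194 to 953 and 1082 (-1.13 ± 0.23).

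Markers of other cell types were measured beside the 13 T cell genes, which summed to 32067 and 45781 scaled counts in the tumor libraries and 39513 and 34244 in the spleen libraries. The 12 melanoma genes summed to 66.5 and 65.8 scaled counts in the tumor libraries and 66.8 and 84.9 in the spleen libraries. None of the 4 tested was called. Sox10, Ptgds, Cited1 and Slc45a2 had no read in any of the 4 libraries. Trpm1 had 7 reads in tumor and 1 in spleen, a ratio of 8.73 (exact 95% counting interval 1.12 to 393). The 22 macrophage and monocyte genes summed to 255 and 313 scaled counts in the tumor libraries and 68.2 and 57.6 in the spleen libraries, of which Fcer1g gave 160.3 and 172 against 20.9 and 4.19, with 3 of 8 tested called higher (Fcer1g, Cd68 and Cd14). Of its defining genes, Adgre1, Csf1r, C1qa and C1qc were at 0 in both tumor libraries. C1qb had 5 reads in tumor and 3 in spleen, and Cybb 8 and 3. Neutrophil genes summed to 5.45 and 11.8 scaled counts in the tumor libraries and 19.5 and 12.6 in the spleen libraries. Dendritic cell genes summed to 779.8 and 719.6 scaled counts in the tumor libraries and 1280.2 and 1588 in the spleen libraries, mostly from Bst2 and Itgax. H2-Ab1 rose from 5.57 and 1.05 to 30.5 and 44.7 and Cd74 from 2.78 and 2.10 to 20.7 and 21.2, and Clec9a and Clec10a were at 0 in all 4. B cell genes summed to 535 and 1032 scaled counts in the tumor libraries and 1236 and 1203 in the spleen libraries, mostly Ighm (502 and 974 against 1042 and 1069.7), with 1 of 3 tested lower in tumor (Cd79b). The CD4 list summed to 1841 and 1806 scaled counts in the tumor libraries and 259 and 266 in the spleen libraries, from Il2ra, Ikzf2 and Tnfrsf4, while Foxp3, also called higher, was at 8.72 and 7.06 in tumor and Cd4 at 0 and 2.35. NK genes summed to 1474 and 1293 scaled counts in the tumor libraries and 2182 and 2048 in the spleen libraries. Most came from Gzma, which CD8+ T cells also express, and Ncr1 was at 0 in tumor. Of 8 tested NK genes 1 rose (Klri2) and 1 fell (Itga2), 12.5% each, beside 13.2% and 8.31% of all tested genes. Fibroblast and endothelial genes had 1 fall (Pecam1) of 3, and erythroid and platelet genes no call of 3. The calls of Cd14, Cd74, Foxp3 and Pecam1 were each lost in 6 or more alternatives, and the part of these cells in the results was not tested.

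The same tissues were compared in VHL-deficient cells, in 4 libraries that the WT comparison did not use. There 1430 genes rose in tumor (9.98%) and 783 fell (5.47%). Of the WT rises 907 also rose in VHL-deficient cells, 48.0% of the WT rises and 63.4% of the VHL-deficient ones. Of the WT falls 462 also fell, 38.8% of the WT falls and 59.0% of the VHL-deficient ones, and 1 gene, Mex3b, was called in opposite directions. Across tested genes the log2 fold changes of the 2 genotypes correlated at r = 0.665, a description across genes measured in separate libraries but scaled and fitted together. In VHL-deficient cells the log2 fold change was 11.90 ± 0.52 for Rgs16, 6.52 ± 0.40 for Pdcd1, 5.23 ± 0.34 for Nr4a3, 4.50 ± 0.49 for Ifng, -5.14 ± 0.51 for S1pr1 and -2.96 ± 0.62 for Tcf7, beside 11.05 ± 0.52, 6.37 ± 0.40, 5.25 ± 0.34, 4.16 ± 0.49, -4.73 ± 0.51 and -3.30 ± 0.62 in WT cells. The glycolysis list, with 15 rises and a median of 2.23 in WT, had 12 rises and a median of 1.12 in VHL-deficient cells, and the other HIF targets 19 rises and a median of 1.41 beside 17 and 1.90. Without WT tumor replicate 1 the WT median of the glycolysis list was 1.37. The difference between genotypes was tested gene by gene and not for the lists.

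**Figure D4:**
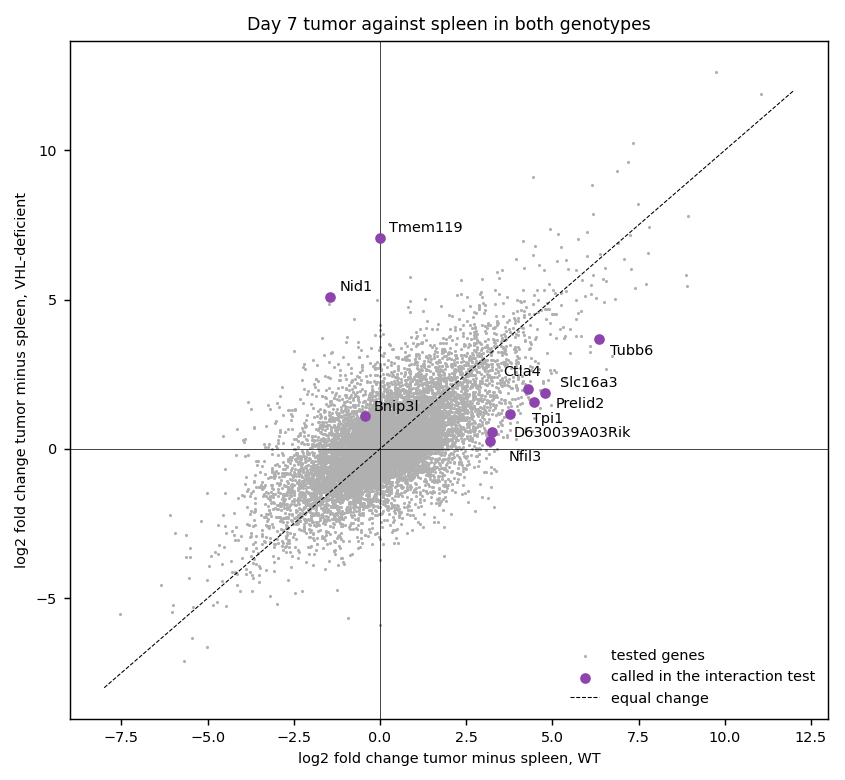
Log2 fold change of day 7 tumor against spleen in WT cells (horizontal axis) and in VHL-deficient cells (vertical axis) for the tested genes, with purple points for the 10 genes called in the genotype by tissue interaction and a dashed line for equal change. The changes correlated at r = 0.665 across genes, and Slc16a3, Tpi1, Nfil3, Ctla4, Tubb6 and Prelid2 lie below the line.

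Only 10 genes (0.0698%) passed the test of the difference between the tissue contrasts, and 1377 had an unadjusted p under 0.05, while voom called 2. The tissue contrast was smaller in VHL-deficient cells for 7 of them. Slc16a3 measured 30.6 and 21.0 in WT spleen, 736 and 722 in WT tumor, 1301 and 1399.5 in VHL-deficient spleen and 5511 and 4454 in VHL-deficient tumor, a difference of contrasts of -2.92 ± 0.42 (adjusted p = 0.0148). Both VHL-deficient spleen libraries lay above both WT tumor libraries. The same order held for Tpi1, with 6846 and 6262 in VHL-deficient spleen and 15093 and 14163 in VHL-deficient tumor against 3807 and 5385 in WT tumor (-2.62 ± 0.45, adjusted p = 0.0359), and for Nfil3, with 554 and 664 in VHL-deficient spleen and 709 and 756 in VHL-deficient tumor against 498 and 492 in WT tumor (-2.93 ± 0.45, adjusted p = 0.0159). Ctla4 differed from these, with 1193 and 1362 in VHL-deficient spleen between WT spleen and WT tumor (-2.30 ± 0.43, adjusted p = 0.0470). Tubb6, a beta tubulin, went from 11.1 and 9.43 in WT spleen to 744 and 1126 in WT tumor and from 103 and 139 to 1622 and 1476 in VHL-deficient cells (-2.67 ± 0.42, adjusted p = 0.0159). Prelid2, of the PRELI family of mitochondrial lipid transfer proteins, went from 5.57 and 2.10 to 72.0 and 136 and from 199 and 151 to 513 and 518 (-2.91 ± 0.53, adjusted p = 0.0445), and the gene model D630039A03Rik was the last of the 7. In the other direction Bnip3l went from 637 and 632 in VHL-deficient spleen to 1395 and 1331 in VHL-deficient tumor, and from 377 and 398 to 299 and 275 in WT cells (1.53 ± 0.28, adjusted p = 0.0469). Nid1, a basement membrane protein, was at 67.6 and 58.3 in VHL-deficient tumor, and Tmem119, a membrane protein best known from microglia, at 156 and 114 (6.55 ± 1.15 and 7.07 ± 1.33). Tmem119 had no read in WT spleen, WT tumor or VHL-deficient spleen, and Nid1 at most 5.24 scaled counts there. These calls rest on few libraries: without VHL-deficient tumor replicate 1 or 2 none passed, 1 passed without WT tumor replicate 2, 2 without WT spleen replicate 2, 3 without VHL-deficient spleen replicate 1 and 16 without VHL-deficient spleen replicate 2.

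In the other WT tumor groups, levels are given without a test, because plate column differs with sort and day. Pdcd1 stood at 6344 and 2784 in Trm, 4717 and 2307 in nonTrm and 2640.4, 5275 and 3109.5 in day 11 cells, all above the 44.5 and 46.1 of spleen. Nr4a1 gave 2124 and 2849.9 in Trm, 2795 and 5358 in nonTrm and 2387, 2693 and 2873 on day 11, against 2937 and 3452 in unsplit tumor cells and 12.5 and 15.7 in spleen. Mki67 was at 1826 and 1742 in Trm and 682 and 371 in nonTrm, against 1297 and 1893 in unsplit tumor cells and 219.9 and 252 in spleen. S1pr1 gave 77.0 and 70.1 in Trm and 149 and 397 in nonTrm, both below the 1289 and 1445 of spleen, and Tcf7 gave 120.3 and 196 in Trm and 289 and 653 in nonTrm against 1251 and 1364 in spleen. Itgae, the CD103 chain, stood at 14.9 and 37.3 in Trm, at 0 in both nonTrm libraries and at 14.6, 10.3 and 4.32 on day 11, below spleen in every group. Ccl5 was at 4362 and 1812 in Trm, 2242 and 7786 in nonTrm and 2081, 1269.9 and 1377 on day 11, above the 1112 and 793 of unsplit day 7 tumor cells and below the 13934 and 11859 of spleen in all 7 libraries.

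**Figure D5:**
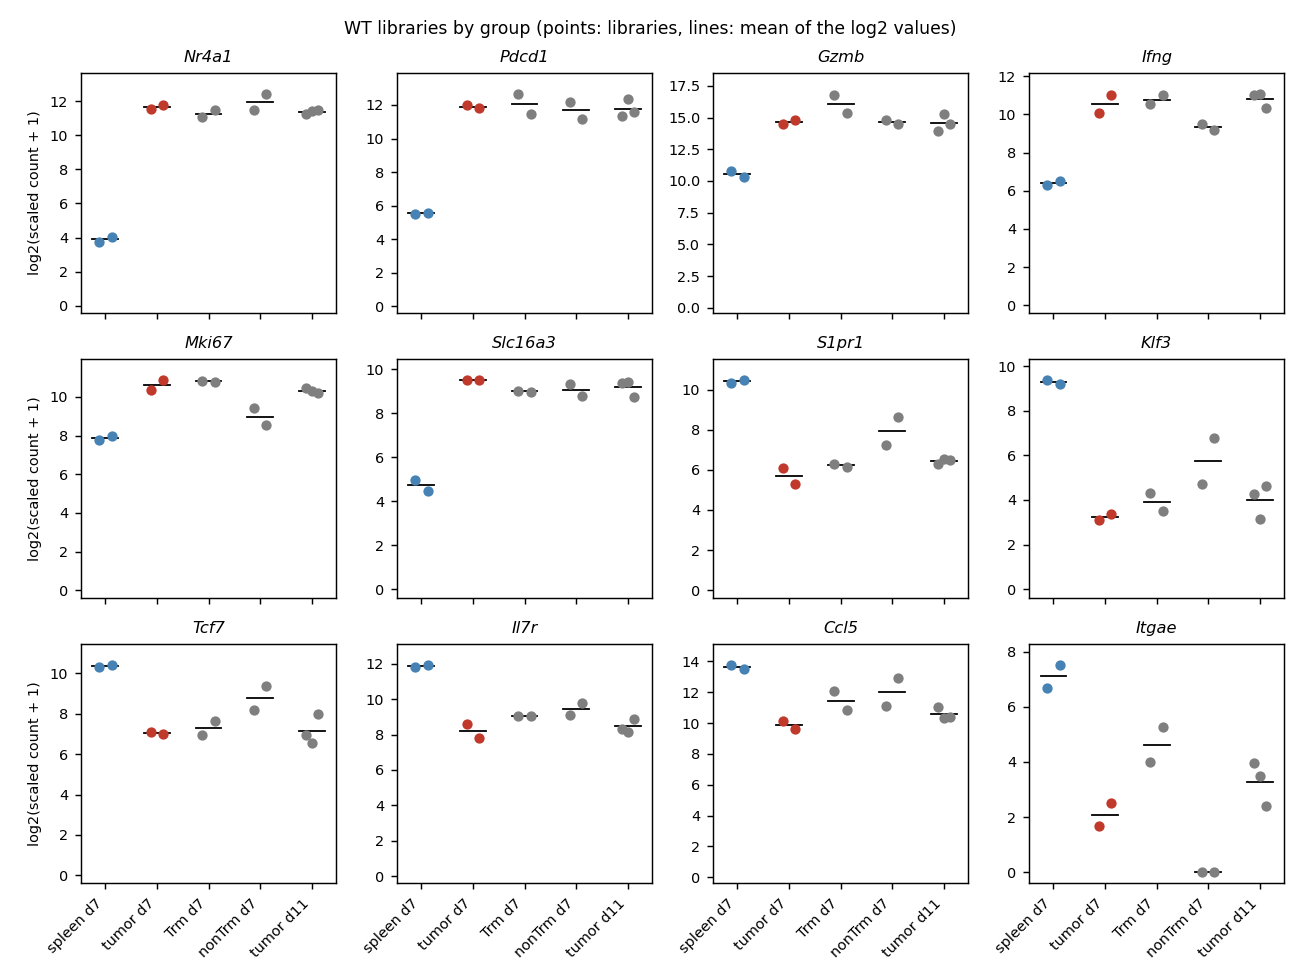
Level of 12 genes in the 11 WT libraries, on the log2(scaled count + 1) scale (vertical axis), for spleen (blue) and tumor (red) on day 7, the Trm and nonTrm sorts of day 7 tumor and day 11 tumor (grey); points are libraries and lines the mean of their log2 values. Pdcd1 and Gzmb stood above spleen, and S1pr1, Tcf7, Il7r and Itgae below it, in all tumor groups.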

How the data were processed

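RNA was sequenced from sorted CD8+ T cells of 22 libraries. Per the labels' protocols, the sort went straight into TCL lysis buffer, RNAClean XP beads captured the RNA, and a PrepX kit gave the libraries. The submitters' processing notes name STAR, featureCounts, DESeq and mm10, with no versions, and strand use is not given in the sources used here. The authors deposited 1 table of size-factor scaled counts (signal), 46297 rows by 22 columns, in which every value is a whole number of reads times a step of its library, plus 1. That offset was removed, and 100% of the values came out whole within 0.01 reads.

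Genes with a scaled count of 10 or more in at least 2 libraries were tested (14327) with limma 3.58.1 in R 4.3.3 on log2(scaled count + 1), with 10 group means over all 22 libraries and 12 residual degrees of freedom, so fold changes of low genes are understated. Since 18 of the 22 libraries are from tumor, the filter favours genes that are high in tumor. Intervals and floors cover counting error only. Tables and figures used Python 3.11.15, numpy 2.4.6, pandas 2.3.3 and matplotlib 3.10.9.

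The genes named were the 12 largest non-overlapping changes in each direction among genes above the median level over all 22 libraries, up to 4 called and 2 abundant uncalled members per pathway list, called and abundant markers, a fixed set and the interaction calls. The members and lists were chosen with earlier results of these data known. Alternatives covered scaling, filter, pseudocount, variance prior, library weights, samples in the fit, a replicate block, voom and leaving out each library. Values of some named genes are not reported here.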

Additional observations from a re-analysis of the deposited data

Results flagged for a closer look

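The tissue contrast differed between genotypes, by limma's interaction test with Benjamini-Hochberg adjustment, in 10 genes. The values are the log2 tumor-minus-spleen difference in VHL-deficient cells minus that in WT cells. Slc16a3, the lactate exporter, gave -2.92, Nfil3 -2.93, Prelid2 -2.91, Tubb6 -2.67, Tpi1 -2.62, the gene model D630039A03Rik -2.66 and Ctla4 -2.30, a smaller tissue contrast in VHL-deficient cells. Bnip3l, the mitophagy receptor, gave 1.53, Nid1 6.55 and Tmem119 7.07, in the opposite direction. In Nid1 and Tmem119 the value rests on the 2 VHL-deficient tumor libraries alone, since reads elsewhere among these 8 libraries were few or none. No group of the compared libraries was large enough for a test of single outlying samples.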

How the results depend on the processing

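The count of genes called between WT tumor and spleen, 3079, was 1126 with only the 2 groups fitted (710 higher, 416 lower) and 1486 to 2745 with 1 of the 4 libraries left out (923 to 1624 higher, 537 to 1121 lower), fits in which the lone library left is assumed to vary like the other groups. Scaling by total reads outside ribosomal RNA and mitochondrial genes, chosen after seeing the data, gave 1251 higher and 2132 lower. In VHL-deficient cells 2213 genes were called, 3494 with library weights and 876 to 1543 with a library left out. The 10 interaction calls became 5 with a filter of 1 scaled count or a pseudocount of 5, 16 with no filter beyond 1 read, 1 without a trend in the variance prior, 2 with voom, 17 without VHL-deficient nonTrm replicate 2 and 0 to 16 with a library left out. Leaving out VHL-deficient nonTrm replicate 2, which stood apart, was also chosen after seeing the data and gave 3980 calls in WT cells (2445 higher, 1535 lower) and 2873 in VHL-deficient cells.

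The replicate numbers were taken as names, since the labels do not say whether same-numbered tumor and spleen libraries are paired. Deviations of same-numbered libraries from their group means correlated at r = -0.0953 in WT and -0.0109 in VHL-deficient cells, across genes. With 2 libraries per group the deviations are mirror images, so these values cannot show whether the libraries are paired. With a replicate block, 1737 genes were higher and 1043 lower in WT tumor, and 5 interaction calls were made. Of 161 named genes that were called, 112 kept the call in every alternative run, and 0 reversed. With only the 2 groups fitted, 35 lost it, among them Klf2, Myb, Bcl2, Smad3, Itgax, Socs1, Slc2a1, Idh1, Ifi27l2a, Adora2b and Atp5b. The planned count tests with edgeR and DESeq2 were not run. Calls of genes with under 3 reads per library in a tissue are limited by depth.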

Other observations

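Further granule, signaling and metabolic genes had few spleen reads. Gzme, a granzyme related to Gzmc, had a ratio of 166 (exact 95% counting interval 29.2 to 6597) of tumor over spleen. Spry1, an inhibitor of growth factor signaling, had a ratio of 48.6 (exact 95% counting interval 8.23 to 1969). Adora2b, an adenosine receptor, had a ratio of 9.35 (exact 95% counting interval 2.17 to 84.3), a call lost without tumor replicate 2 or spleen replicate 1. Areg, a ligand of the epidermal growth factor receptor, and Il3, a growth factor of myeloid cells, had no spleen read and were at least 8.16-fold and 6.10-fold higher in tumor.

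Genes of sterol synthesis were mostly without a call, with 2 rises (Cyp51 and Sqle) and 1 fall (Abcg1) of 28. These are 7.14% and 3.57%, beside 13.2% and 8.31% of all tested genes. Cyp51, a sterol demethylase, went from 104 and 108 in spleen to 597 and 348 in tumor (log2 fold change 2.09 ± 0.54, adjusted p = 0.00942, limma), a call lost in 3 of the 4 fits with a library left out, and that of Sqle was lost in all 4. Mitochondrial ribosomal protein genes rose in 10 and fell in 1 of 79 (12.7% rose, beside 13.2% of all tested genes), with 1 rise without tumor replicate 2, 2 rises without spleen replicate 2, 6 without spleen replicate 1, 4 under scaling by total reads and 16 without VHL-deficient nonTrm replicate 2. Among nuclear long RNAs, Neat1, the scaffold of paraspeckles, fell from 895 and 1292 to 406 and 348 (log2 fold change -1.51 ± 0.44, adjusted p = 0.0197), a call lost without tumor replicate 2 or spleen replicate 2, and Malat1 stood at 4839 and 5204 against 11052 and 9593 (adjusted p = 0.0881).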
